A study of Mus musculus with 30 samples.

Results

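Messenger RNA levels of 10 genes of the contractile and actin cytoskeleton that are known targets of serum response factor (SRF) were followed in mouse 3T3-L1 cells, a line of preadipocytes that turn into adipocytes in culture. The genes were taken by name as a set, with earlier results of these data known. They are Acta2, Tagln, Cnn1, Cnn2, Myl9, Tpm1, Tpm2, Actb, Vcl and Ccn2, all of which were found among the 54232 genes of the count table and among the 20139 genes tested. All 30 libraries came from cells kept in adipogenic medium for 5 days, in 6 groups of 5 libraries. The groups were control cells without an added agent, cells with pNaKtide at 0.7 µM, cells with indoxyl sulfate (IS) at 100 µM, cells with IS and pNaKtide, cells with oxidized low-density lipoprotein (oxLDL) at 50 µg/mL, and cells with oxLDL and pNaKtide, and the labels give a treatment of 5 days. The methods of the study describe a shorter treatment that began after the adipogenic period, so that its length is in doubt. IS is a uremic toxin made from dietary tryptophan, oxLDL is the oxidized form of the lipoprotein that carries cholesterol in plasma, and pNaKtide is a cell-permeant peptide directed at the amplification of oxidant signaling by the Na,K-ATPase and Src. All groups are cultures of 1 established line, and the extraction protocol of the labels speaks of adipose tissue, although the source given is 3T3 cells. Nothing in the labels says that the 5 libraries of a group came from separate cultures, so the p-values measure the spread between these libraries, which may be technical.

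SRF is a transcription factor that binds the CArG box, a short element with a core rich in A and T. In one branch of its control, the assembly of actin filaments frees the coactivators Mrtfa and Mrtfb from monomeric actin so that they enter the nucleus and act with SRF on contractile and adhesion genes. In the other branch, ternary complex factors such as Elk1 act with SRF on immediate early genes. Fibroblast-like preadipocytes hold stress fibers and focal adhesions, and the actin cytoskeleton is known to be remodelled as they become rounded, lipid-filled adipocytes.

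Total counts ran from 6945498 to 15159877 per library, with a median of 11524210. Some libraries stood apart from their groups on the first principal component, which held 71.67% of the variance of 9872 genes. Control replicate 1 lay at -22.4, among the IS and oxLDL libraries, while the other controls lay between 5.30 and 25.4. IS replicate 4 lay at 24.4, while the other IS libraries lay between -30.9 and -19.1. Replicate 4 of oxLDL + pNaKtide lay at 57.0 against 12.8 to 28.1 in the rest of its group, and pNaKtide replicate 3 at -4.61 against 13.2 to 30.9. Both control replicate 1 and IS replicate 4 were kept in the groups of their labels, and results that turn on them are also given without them. They were picked from these same data because each lay away from its own group and toward the other. Leaving them out thus favours wider differences from control, and smaller p-values without them are no added support. Adipocyte markers were strongly expressed in every library, with 12 of 12 markers tested and a summed level of 3915 to 7765 FPKM (fragments scaled to gene length and depth, and thus comparable between genes), although Lep (leptin) among them was low at a mean of 0.0616 FPKM in control cells. The macrophage markers Ptprc, Itgam and Tyrobp and the endothelial markers Tie1 and Cldn5 had no count in any library, and the summed levels ran from 5.60 to 10.7 FPKM over the 8 macrophage markers and from 0.00784 to 0.112 FPKM over the 8 endothelial markers.

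The sequences upstream of the members' starts are shown because the CArG box is the feature by which SRF reaches its targets. In the RefSeq windows on GRCm38.p6, 7 of the 10 members had an entry, and those for Tagln, Actb and Ccn2 were not analysed here. The 250 bases before each start were searched for CC, 6 bases that are each A or T, and GG, a motif whose class is its own reverse complement, so that one scan covers both strands. A box of this kind stood before 3 members, Cnn2, Myl9 and Vcl, and in 482 of all 32851 windows (1.467%). A box with 1 central base other than A or T, a class added after the strict search was seen, stood 2 times before Acta2 and 1 time before Myl9, and in 2380 windows (7.245%). Neither kind of box was found in these bases before Tpm1, Tpm2 or Cnn1. The starts are those of the windows, 1 per member with an entry. By the gene spans given below, the Acta2 stretches and most bases searched for Tpm1 and Tpm2 lie inside the gene. Each line below gives 50 bases on the strand of the gene, 5′ to 3′, with the box in capitals.
Cnn2, chr10:79988524-79988573, plus strand: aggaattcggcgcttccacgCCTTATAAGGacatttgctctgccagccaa
Vcl, chr14:20929151-20929200, plus strand: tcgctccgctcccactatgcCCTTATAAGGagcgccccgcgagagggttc
Myl9, chr2:156775283-156775332, plus strand: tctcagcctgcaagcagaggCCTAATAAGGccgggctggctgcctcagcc
Myl9, second box, chr2:156775345-156775394, plus strand: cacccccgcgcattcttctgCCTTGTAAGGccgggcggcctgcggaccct
Acta2, distal box, chr19:34255428-34255477, minus strand: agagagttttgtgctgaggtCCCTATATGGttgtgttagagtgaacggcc
Acta2, proximal box, chr19:34255378-34255427, minus strand: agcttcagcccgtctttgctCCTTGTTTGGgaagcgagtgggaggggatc
The box of Cnn2 lay 56 to 47 bases before the start, that of Vcl 227 to 218 bases before it, the strict box of Myl9 161 to 152 bases before it, and the proximal box of Acta2 34 to 25 bases before it. The boxes of Cnn2 and Vcl had the same 10 letters. A match is a description of the letters and no evidence of binding in these cells.

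The members differed widely in level per length. Actb, the cytoplasmic beta actin of all cells, had a mean of 260 FPKM over the 30 libraries (range 186 to 316), above 98.2% of the genes tested. Vcl, which encodes vinculin and links actin to focal adhesions, followed with a mean of 21.9 FPKM (9.96 to 32.2), and Cnn2, a calponin found in many cell types outside muscle, with 15.9 FPKM (11.4 to 24.4). The tropomyosins Tpm2 and Tpm1, which lie along actin filaments, had means of 9.57 FPKM (5.62 to 17.4) and 8.83 FPKM (6.70 to 10.1), and their ranges over the libraries overlapped. Acta2, the smooth muscle alpha actin of myofibroblasts and vascular smooth muscle, stood at a mean of 5.02 FPKM (1.85 to 10.0).

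The remaining 4 members were close to absent. Tagln (transgelin, SM22), an actin-binding marker of smooth muscle, had a mean of 0.267 FPKM and 1 to 13 counts per library. Myl9, the regulatory light chain of smooth muscle myosin, had 0.227 FPKM and at most 7 counts in a library, and Ccn2 (CTGF), a secreted target of the YAP and SRF pathways, had 52 counts over all libraries and 0 counts in 8 of them. Cnn1, the smooth muscle calponin, had 25 counts over all libraries, 0 counts in 14 of them and at most 4 in any 1 library. The limit that a count of 0 allows is 3 counts per library, so that no fold change is given for Cnn1, Ccn2 and Myl9. Counts near this floor leave the members' level in these cells undetermined beyond that limit, and the limit covers counting error only.

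Tagln, Cnn1 and Myl9 each had a close relative that was plainly expressed, a comparison chosen after the levels were seen and given without a test. Of the summed FPKM of the transgelin genes, Tagln2 held 99.5% and Tagln 0.397%. Of the calponins, Cnn3 held 70.5% and Cnn2 29.5%, while Cnn1 held 0.0470%. Of the regulatory light chains, Myl12b held 57.0%, Myl12a 42.9% and Myl9 0.163%. In each of these families the smooth muscle form was far below the highest form, which is one known from non-muscle cells. Tagln3, a transgelin of neurons, was lower still than Tagln at 0.0821%. Of the actins, Actg1 held 57.0%, Actb 42.1% and Acta2 0.783%, and of the tropomyosins, Tpm4 held 57.1%, Tpm3 23.3%, Tpm2 10.2% and Tpm1 9.46%. Actb and Actg1, and Acta2 and its muscle relatives, are alike in coding sequence, as are Myl12a and Myl12b, and the authors' counting may have divided reads among such genes.

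**Figure D1:**
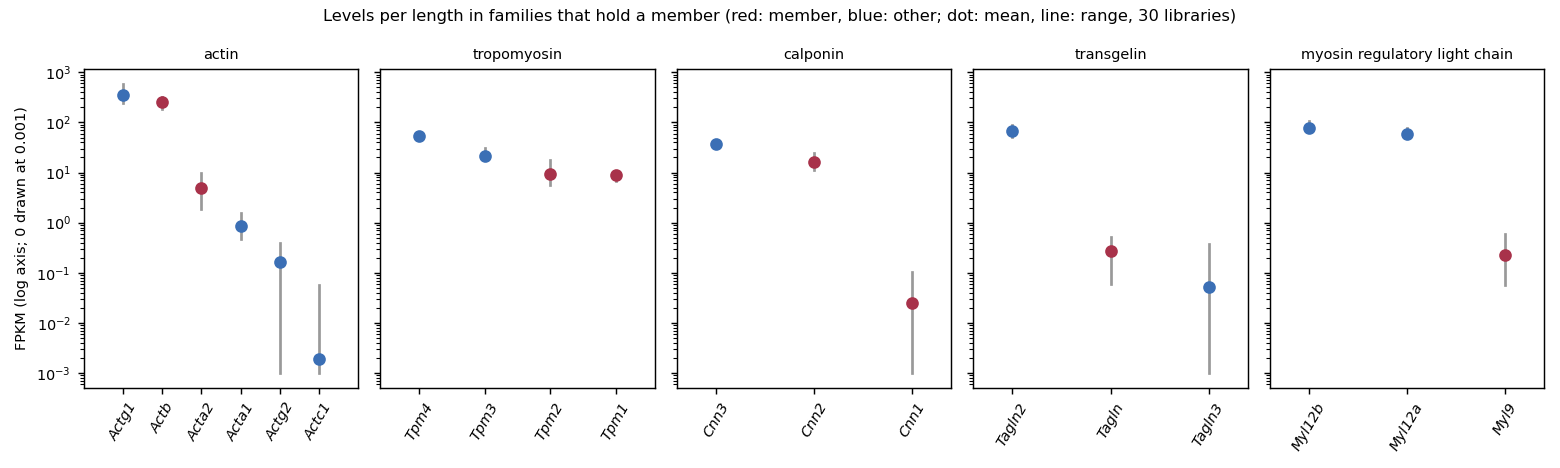
Level per length (FPKM, log axis, with 0 drawn at 0.001) of the genes of 5 families that hold a member; each dot is the mean and each line the range over the 30 libraries, red for members and blue for relatives. Tagln, Myl9 and Cnn1 sit at means of 0.267, 0.227 and 0.0252 FPKM, below Tagln2 at 68.5, Myl12b at 79.0 and Cnn3 at 37.7 FPKM.

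Several muscle regulators and markers were also low. Myocd, the coactivator of SRF in smooth and cardiac muscle, had 3 counts over all libraries, and Kcnmb1, Myod1 and Myog had none. Lmod1 had a mean of 0.275 FPKM and Myh11, the smooth muscle myosin heavy chain, 1.16 FPKM, while Smtn and Des were at 6.17 and 5.10 FPKM. Srf had a mean of 7.48 FPKM, Mrtfa 6.99 FPKM and Mrtfb 3.51 FPKM, and each had counts in all 30 libraries. Smtn and Des lay between Mrtfb and Mrtfa in level, and they too had counts in all 30 libraries.

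How the members differed between the groups was asked with TMM-normalized CPM (counts scaled to sequencing depth, comparable between libraries but not between genes) and edgeR's quasi-likelihood test at a BH-adjusted p-value of 0.1 over all genes. Between oxLDL and control, 2 of the 10 members passed, against 36.0% of all genes tested, and the groups of each member overlapped. Overlap was not counted over all genes, so where its absence is given for a gene below, it only describes the libraries. Between oxLDL + pNaKtide and oxLDL, 2 members passed, against 48.3% of all genes. In both comparisons these were Tpm1 and Tpm2, and the 2 changed in opposite directions. The median log2 fold change over the 7 members with a median above 3 counts per library, Tagln among them although it had 3 counts or fewer in 3 libraries, was -0.32 for oxLDL against control, beside 0.045 over all genes, and -0.068 for oxLDL + pNaKtide against oxLDL, beside -0.086. The share of members that passed was below that of all genes in both comparisons, and with 10 members it says little about them as a set. Because these are bulk libraries, fewer cells of a type and less RNA per cell cannot be told apart in any of these values.

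**Figure D2:**
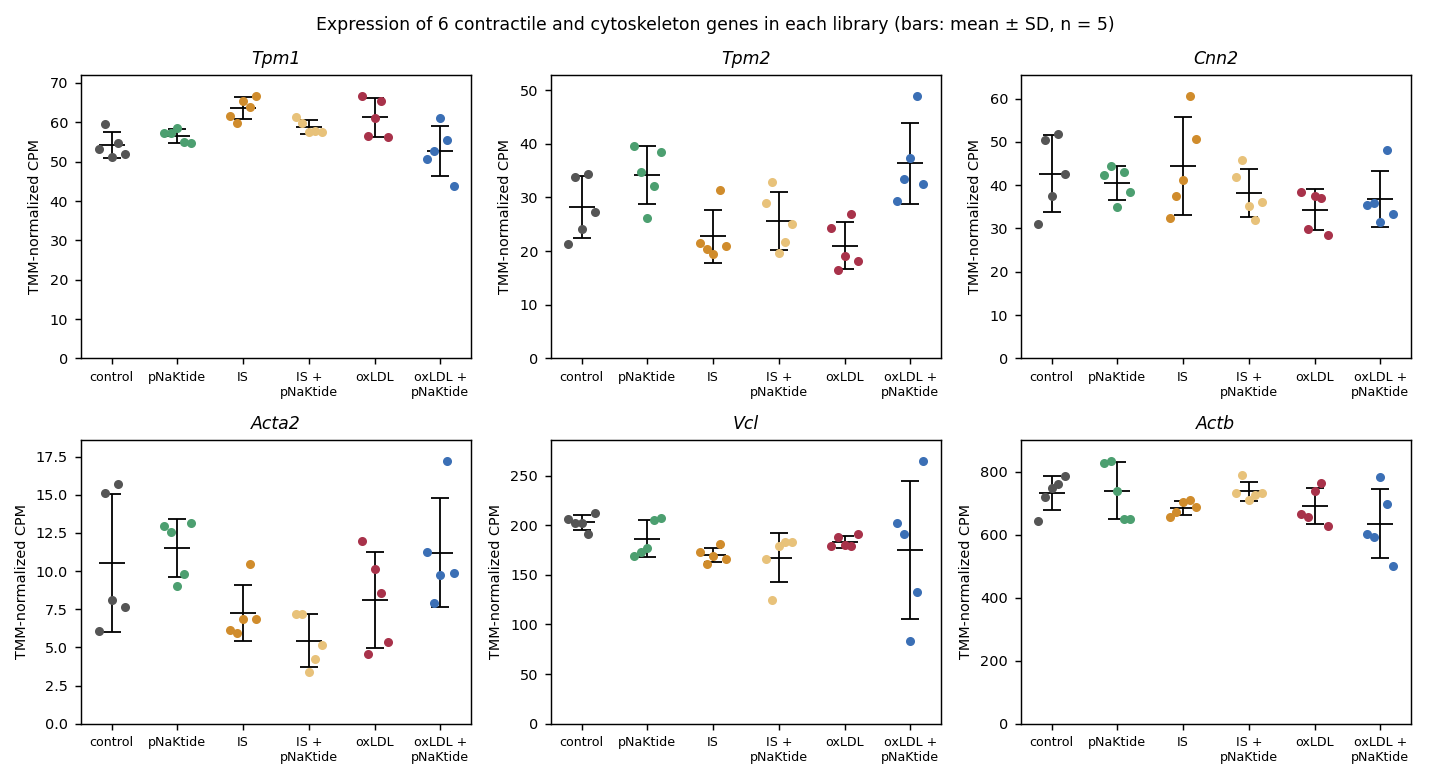
TMM-normalized CPM of the 6 members with a mean over 5 FPKM, 1 point per library in the order of replicates, with bars for the mean ± SD (n = 5) of each of the 6 groups; each axis starts at 0. Tpm1 is highest with IS and oxLDL, and Tpm2 lies between 29.4 and 49.0 CPM in all 5 oxLDL + pNaKtide libraries, above the 16.5 to 26.8 CPM of the oxLDL libraries.

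Tpm2 (ENSMUSG00000028464; GRCm38 chromosome 4, 43514711 to 43523765, minus strand), the tropomyosin known best from slow and smooth muscle, fell with oxLDL and was higher when pNaKtide was added. In the control libraries, replicates 1 to 5 were at 21.3, 33.8, 24.2, 34.3 and 27.2 CPM. The oxLDL libraries were at 24.4, 16.5, 19.0, 26.8 and 18.1 CPM, and the oxLDL + pNaKtide libraries at 29.4, 33.5, 37.3, 49.0 and 32.5 CPM. All 5 oxLDL libraries lay below the control mean, but the groups overlapped, whereas every oxLDL + pNaKtide library lay above every oxLDL library. The mean fell from 28.2 ± 5.79 CPM (SD, n = 5) in control cells to 20.97 ± 4.40 CPM with oxLDL, a log2 fold change of -0.42 ± 0.17 (SE) with a BH-adjusted p-value of 0.0587 by edgeR's test. With oxLDL and pNaKtide together it was 36.3 ± 7.62 CPM, a log2 fold change of 0.79 ± 0.17 over oxLDL with a BH-adjusted p-value of 0.000427. Against control cells the log2 fold change with both agents was 0.36 ± 0.17 with an interval (± 1.96 SE) of 0.036 to 0.69, and it did not pass (BH-adjusted p-value 0.252).

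The rise of Tpm2 with pNaKtide over oxLDL was called in 10 of 10 alternative analyses and without each of the 10 libraries in turn, with log2 fold changes of 0.67 to 0.89 in the latter. It was 0.52 with offsets for GC content and length (BH-adjusted p-value 0.00232) and 0.56 with scaling by library size alone (0.00343). The fall with oxLDL was less firm. It was -0.19 (BH-adjusted p-value 0.345) with the offsets and -0.29 (0.162) with library size alone, and the call was lost without control replicate 2 or 4 or oxLDL replicate 2, 3 or 5, at BH-adjusted p-values of 0.103 to 0.171. Without control replicate 1 and IS replicate 4 it was -0.51 (0.00933).

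Tpm1 (ENSMUSG00000032366; GRCm38 chromosome 9, 67022590 to 67049406, minus strand), the tropomyosin of stress fibers and of striated and smooth muscle, changed little but in a narrow spread. The control libraries were at 53.2, 59.5, 51.2, 54.8 and 52.0 CPM for replicates 1 to 5. Those with oxLDL were at 66.8, 56.6, 61.1, 65.4 and 56.3 CPM, and those with oxLDL and pNaKtide at 50.6, 52.8, 61.0, 55.6 and 43.7 CPM. All 5 oxLDL libraries lay above the control mean and all 5 libraries with both agents lay below the oxLDL mean, although the groups overlapped in both cases. From 54.1 ± 3.29 CPM in control cells Tpm1 rose to 61.2 ± 4.85 CPM with oxLDL, a log2 fold change of 0.18 ± 0.08 with a BH-adjusted p-value of 0.0755. It was lower at 52.8 ± 6.39 CPM with both agents, by a log2 fold change of -0.22 ± 0.08 against oxLDL with a BH-adjusted p-value of 0.0214.

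With IS, Tpm1 was at 61.6, 59.9, 65.4, 64.0 and 66.8 CPM. Each of these 5 libraries lay above every control library, so that the groups did not overlap, and control replicate 1 and IS replicate 4 were within their own groups for this gene. The mean was 63.5 ± 2.78 CPM, a rise of 0.23 ± 0.08 on the log2 scale over control with a BH-adjusted p-value of 0.0864. Tpm1 was the 1 member of 10 that passed in this comparison, against 7.94% of all genes. Lack of overlap between these groups was not counted over all genes, so it describes the libraries and is no added support. Without control replicate 1 and IS replicate 4, 3 members passed between IS and control, among 9140 genes against 1599 with all libraries. The number of genes called was unstable in both directions, with 6694 without control replicate 1, 6952 without IS replicate 4 and 15 to 305 without any other single library, and with 0 when the compared groups alone were in the model.

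These calls on Tpm1 were close to the threshold. With the compared groups alone in the model none of the 3 passed, at BH-adjusted p-values of 0.133 for oxLDL, 0.257 for IS and 0.127 for oxLDL + pNaKtide against oxLDL. With offsets for GC content and length its log2 fold change was 0.15 with oxLDL (BH-adjusted p-value 0.224), 0.21 with IS (0.148) and -0.08 for oxLDL + pNaKtide against oxLDL (0.512). The rise with oxLDL lost its call without control replicate 3, 4 or 5 or oxLDL replicate 1 or 4 (0.120 to 0.193), and the fall with both agents lost it without replicate 5 of oxLDL + pNaKtide (-0.14, 0.129). The rise with IS was lost without any one of control replicates 2 to 5 or of IS replicates 1, 2, 3 and 5, at BH-adjusted p-values of 0.138 to 0.215, while without both control replicate 1 and IS replicate 4 it was 0.22 (0.0343).

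The ratio of Tpm2 to Tpm1 in FPKM, a comparison chosen after the values were seen and given without a test, differed most between oxLDL and oxLDL + pNaKtide. It was 0.813, 0.651, 0.694, 0.914 and 0.718 in the oxLDL libraries and 1.30, 1.41, 1.36, 1.96 and 1.66 in those with both agents. Tpm1 was thus the higher of the pair in all 5 oxLDL libraries and Tpm2 the higher in all 5 libraries with oxLDL and pNaKtide. Mean ratios were 1.16 ± 0.194 in control cells, 1.35 ± 0.232 with pNaKtide, 0.799 ± 0.172 with IS and 0.971 ± 0.183 with IS and pNaKtide. Control replicate 1 was at 0.891, the lowest of its group, and IS replicate 4 at 1.10, the highest of its group. Of the other tropomyosins, Tpm3 was at 18.9 ± 1.38 FPKM with oxLDL and 25.0 ± 3.06 FPKM with both agents, and Tpm4 at 56.0 ± 2.16 and 50.5 ± 4.77 FPKM.

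**Figure D3:**
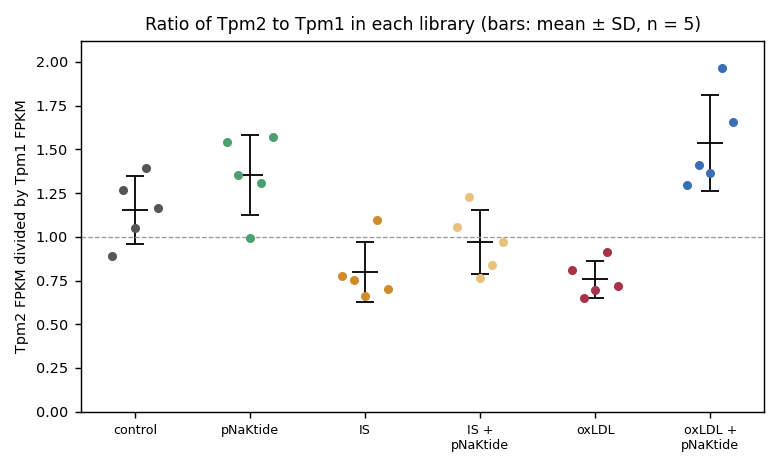
Ratio of Tpm2 FPKM to Tpm1 FPKM in each library (points, in the order of replicates) with the mean ± SD (n = 5) of each group and a dashed line where the genes are equal. The oxLDL libraries lie between 0.651 and 0.914 and the oxLDL + pNaKtide libraries between 1.30 and 1.96, with no overlap.

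Cnn2 (ENSMUSG00000004665; GRCm38 chromosome 10, 79988584 to 79996062, plus strand) had a lower mean with oxLDL without passing the test. Control libraries were at 30.9, 50.5, 37.4, 51.9 and 42.6 CPM and oxLDL libraries at 38.5, 29.8, 37.6, 37.1 and 28.5 CPM. Every oxLDL library lay below the control mean of 42.7 ± 8.83 CPM, but control replicates 1 and 3 lay among them. The log2 fold change was -0.32 ± 0.15 with a BH-adjusted p-value of 0.111. With all libraries it passed under 3 alternatives, with DESeq2 (0.0933), with a replicate block (0.0987) and with the compared groups alone (0.0866). Without control replicate 1 and IS replicate 4 it was -0.41 with a BH-adjusted p-value of 0.0101, so that 3 members then passed between oxLDL and control, where the genes called rose from 7259 to 9591 of all tested, and without control replicate 1 or control replicate 3 alone the BH-adjusted p-values ran from 0.0252 to 0.0931. With both oxLDL and pNaKtide, Cnn2 was at 36.8 ± 6.50 CPM, a log2 difference of 0.10 ± 0.15 from oxLDL with an interval of -0.20 to 0.39 (BH-adjusted p-value 0.646).

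Acta2 (ENSMUSG00000035783; GRCm38 chromosome 19, 34241090 to 34255590, minus strand) was the most variable of the 6 members that could be measured well, with a highest library 5.12 times the lowest. In control cells it was at 6.07, 15.1, 8.12, 15.7 and 7.66 CPM. The IS libraries were at 6.13, 5.93, 6.85, 10.4 and 6.89 CPM and the IS + pNaKtide libraries at 7.20, 7.19, 3.36, 4.22 and 5.13 CPM. All 5 libraries of each of these groups lay below the control mean of 10.5 ± 4.52 CPM, and both groups overlapped the lowest control libraries. For IS the log2 fold change was -0.55 ± 0.27 (BH-adjusted p-value 0.194), and for IS + pNaKtide it was -0.96 ± 0.27 (0.140), so that no member passed in the latter comparison, against 0.358% of all genes. Acta2 did pass in it under 6 of 10 alternative analyses, 5 of them with all libraries, at -0.97 (0.0357) with DESeq2 and at BH-adjusted p-values of 0.0725 to 0.0997 with a replicate block, with more than 14 counts in every library, with the compared groups alone and with offsets for GC content and length. The 72 genes behind that share also rose under these alternatives. They became 1486 with DESeq2, 1338 with a replicate block and 1152 with the compared groups alone. With the offsets they were 431, and with more than 14 counts in every library 312. They became 5378 without control replicate 1 and 2 without control replicate 2. Without control replicate 1 and IS replicate 4 the values were -0.86 (0.0166) for IS and -1.11 (0.00590) for IS + pNaKtide, and Tpm2 was then at -0.54 (0.00944) for IS. The choice of these 2 libraries from the same data favours such wider differences. Tpm2 also passed between IS and control without either of these 2 libraries alone, at BH-adjusted p-values of 0.0390 and 0.0806. Leaving out control replicate 1 alone gave a call for Acta2 in both comparisons, and leaving out IS replicate 4 alone gave it for IS, at BH-adjusted p-values of 0.0138 to 0.0621.

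With oxLDL, Acta2 was at 12, 4.56, 10.1, 8.54 and 5.33 CPM, and with oxLDL and pNaKtide at 11.2, 7.91, 9.77, 17.2 and 9.87 CPM. These groups overlapped, and 4 of 5 libraries with both agents lay above the oxLDL mean of 8.11 ± 3.15 CPM. The log2 difference was 0.45 ± 0.27 with an interval of -0.08 to 0.98, and the BH-adjusted p-value was 0.189. It was 0.66 (0.0673) without oxLDL replicate 1, and with all libraries it passed with limma-trend on log2(FPKM + 1) (0.44 on that scale, 0.0960). Against control cells, oxLDL gave -0.39 ± 0.27 (BH-adjusted p-value 0.296). In these 2 oxLDL comparisons the intervals of Acta2 hold both no difference and changes of the size seen for Tpm2.

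Vcl (ENSMUSG00000021823; GRCm38 chromosome 14, 20929398 to 21033676, plus strand) was even across the control and oxLDL libraries and uneven with oxLDL + pNaKtide. Control libraries were at 206, 202, 203, 191 and 213 CPM, and IS libraries at 173, 161, 169, 181 and 166 CPM, all below every control library. The oxLDL + pNaKtide libraries were at 202, 191, 83.2, 133 and 265 CPM, a group that held both the lowest and the highest level of Vcl in the study. For IS against control the log2 fold change was -0.25 ± 0.16, and despite groups that did not overlap the BH-adjusted p-value was 0.320. IS + pNaKtide libraries were at 166, 125, 180, 183 and 183 CPM and likewise did not overlap the controls (-0.28 ± 0.16, BH-adjusted p-value 0.321). The oxLDL libraries lay between 179 and 191 CPM, with a log2 difference from control of -0.15 and an interval of -0.46 to 0.17 (BH-adjusted p-value 0.539). The SD was 69.4 CPM with oxLDL + pNaKtide and 7.99 CPM in control cells. For IS and for IS + pNaKtide against control, Vcl passed in 0 of 10 alternative analyses, the compared groups alone among them.

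Actb (ENSMUSG00000029580; GRCm38 chromosome 5, 142903115 to 142906754, minus strand) passed in no comparison with TMM scaling alone and all libraries. Group means ran from 636 ± 109 CPM with oxLDL + pNaKtide to 741 ± 91.3 CPM with pNaKtide alone, and the highest of the 30 libraries was 1.67 times the lowest. Between oxLDL and control the log2 difference was -0.081 with an interval of -0.28 to 0.11 (BH-adjusted p-value 0.580), and between oxLDL + pNaKtide and control it was -0.20 with an interval of -0.40 to -0.0083 (0.288). Libraries with oxLDL and pNaKtide were at 603, 593, 785, 700 and 500 CPM, and replicate 3 was the highest of them. Without that replicate Actb was lower than with oxLDL by a log2 fold change of -0.21 (BH-adjusted p-value 0.0836) and lower than in control cells by -0.29 (0.0947). With all libraries it also passed as lower than with oxLDL with offsets for GC content and length (-0.22, 0.0196) and with scaling by library size alone (-0.34, 0.00320), and with the latter as lower than in control cells (-0.29, 0.0572). Between IS + pNaKtide (710 to 791 CPM) and IS (657 to 710 CPM) the groups did not overlap, and the log2 difference was 0.11 ± 0.10 with a BH-adjusted p-value of 1.

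Actg1, the cytoplasmic gamma actin, differed from Actb in its course, a comparison chosen after the values were seen. It stood at 741 to 1169 CPM in control cells, 665 to 904 CPM with oxLDL and 996 to 1512 CPM with oxLDL + pNaKtide. It fell by 0.43 on the log2 scale with oxLDL (BH-adjusted p-value 0.0185) and was higher by 0.63 with both agents than with oxLDL (0.000343), with no overlap between the last 2 groups. The share of Actb in the summed actin FPKM was accordingly 41.2% ± 3.07 in control cells, 46.9% ± 1.40 with oxLDL and 34.5% ± 5.48 with both agents.

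Tagln gave too few counts for a firm comparison. Its group means ran from 0.419 ± 0.214 CPM with oxLDL + pNaKtide to 0.687 ± 0.321 CPM in control cells, and all groups overlapped. Against control the log2 differences were -0.51 with an interval of -1.21 to 0.20 for oxLDL (BH-adjusted p-value 0.313) and -0.50 with an interval of -1.18 to 0.19 for IS (0.374). Summed over the 5 libraries of a group, Myl9 had 11 to 18 counts, Ccn2 had 6 to 14 and Cnn1 had 2 to 9. None of these 3 genes passed in any comparison of the main analysis, and counts this low cannot show that their levels were equal.

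pNaKtide alone left no member past the threshold, with 0.00497% of all genes called and a lowest BH-adjusted p-value of 0.874 among the members. That value belonged to Tpm2, at 39.6, 34.8, 26.2, 32.2 and 38.6 CPM with pNaKtide. These libraries overlapped the controls, and the log2 difference was 0.28 ± 0.17 with an interval of -0.05 to 0.61. No member passed between IS + pNaKtide and IS, where the share of genes called was 0%. In that comparison edgeR called 0 genes, with 564 at an unadjusted p under 0.05, and DESeq2 called 14. Tpm2 was at 21.4, 20.3, 19.5, 31.5 and 21.03 CPM with IS and at 29.0, 33.0, 19.7, 21.7 and 25.0 CPM with IS and pNaKtide. The groups overlapped, with IS replicate 4 the highest of its group, and the log2 difference was 0.18 ± 0.17 with an interval of -0.14 to 0.51.

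No member passed between oxLDL + pNaKtide and control (5.20% of genes called) or between IS and oxLDL (0.0149%). The 1047 genes behind the first share became 505 without replicate 4 of oxLDL + pNaKtide, 606 without control replicate 3, 683 without control replicate 5 and 11 with the compared groups alone, and rose to 1968 with library size alone, 1896 with offsets for GC content and length, 1821 with DESeq2, 1660 for genes over 14 counts in every library, 1653 with a replicate block and 1631 with limma-trend. Between IS and oxLDL, Cnn2 was at 32.3, 37.5, 41.1, 60.7 and 50.7 CPM with IS, a mean of 44.5 ± 11.3 CPM against 34.3 ± 4.73 CPM with oxLDL. Its log2 difference of 0.37 ± 0.15 had an interval of 0.08 to 0.66, an unadjusted p-value of 0.0169 and a BH-adjusted p-value of 0.856 by edgeR's test. Tpm1 and Tpm2 differed between the 2 agents by 0.05 (interval -0.09 to 0.20) and 0.11 (interval -0.22 to 0.44).

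**Figure D4:**
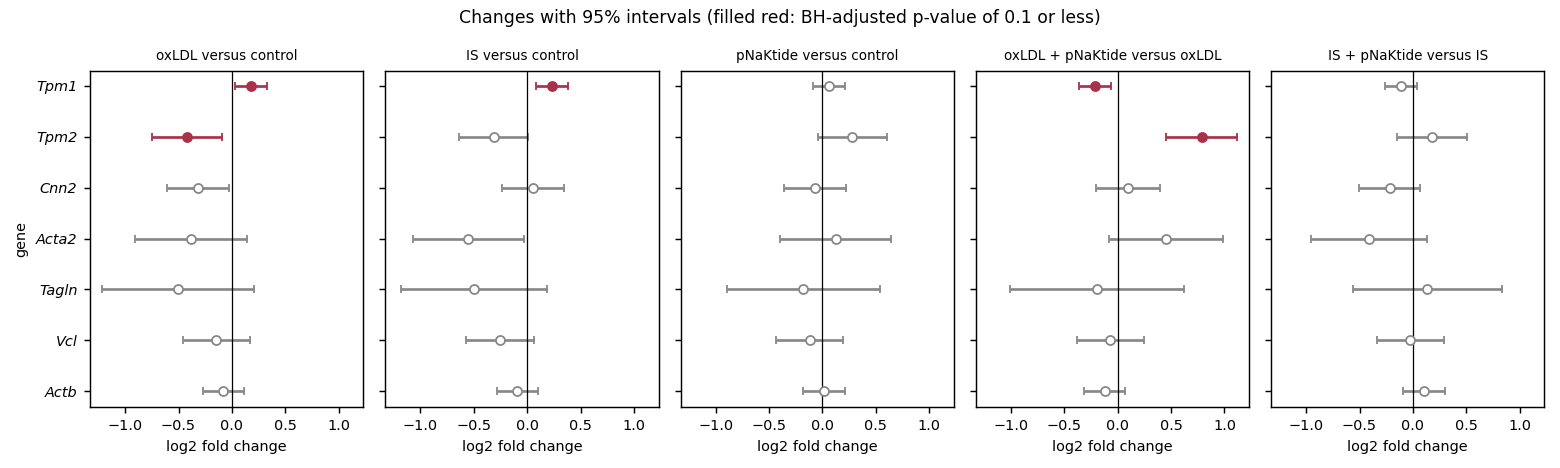
Log2 fold change of the 7 members with a median above 3 counts per library in 5 comparisons, with intervals of ± 1.96 SE from edgeR's model of 30 libraries; filled red points passed a BH-adjusted p-value of 0.1. Only Tpm1 and Tpm2 are filled, Tpm2 at -0.42 for oxLDL against control and 0.79 for oxLDL + pNaKtide against oxLDL.

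Whether pNaKtide changed a member differently with and without oxLDL was tested as a difference of changes, in which 1 member passed, against 24.6% of all genes. The 4951 genes behind this share became 7504 without control replicate 1, 2109 without pNaKtide replicate 3, 2525 without replicate 4 of oxLDL + pNaKtide, 2837 without control replicate 4 and 3150 without control replicate 2. They became 2306 with offsets for GC content and length. The member was Tpm1, with -0.28 ± 0.11 and a BH-adjusted p-value of 0.0718. Tpm2 was at 0.50 ± 0.24 (0.136) with all libraries, but passed with DESeq2 (0.52, 0.0956) and with a replicate block (0.51, 0.0884), and was at 0.59 (0.0338) without control replicate 1 and IS replicate 4, where Tpm1 was at -0.27 (0.0561). Set against the change of pNaKtide with IS, 1 member passed, against 29.3% of all genes, a count of 5894 that became 3793 without IS replicate 4 and 3869 without replicate 4 of oxLDL + pNaKtide. This was Tpm2, higher by 0.60 ± 0.24 on the log2 scale (BH-adjusted p-value 0.0654), and it was at 0.46 (0.135) without the same 2 libraries. Acta2 was at 0.86 ± 0.39 in this test, with an interval of 0.10 to 1.62 and a BH-adjusted p-value of 0.110. With scaling by library size alone and with offsets for GC content and length, Tpm2 lost this call (0.176 and 0.202) and Actb gained it (-0.41, 0.0251, and -0.31, 0.0452), as did Tpm1 with library size alone (-0.29, 0.0679). Acta2 passed in it with all libraries under 5 alternatives, among them DESeq2 (0.91, 0.0567). The call of Tpm1 in the first test was lost with the offsets (-0.20, 0.297), with at least 1 count over all libraries (-0.28, 0.153) and with the compared groups alone (-0.28, 0.134). Actb passed in that test with library size alone (-0.32, 0.0818). Both calls were also lost on leaving out single libraries: Tpm1 without control replicate 3, 4 or 5, oxLDL replicate 1 or 4, oxLDL + pNaKtide replicate 1 or 5, or pNaKtide replicate 3 (0.103 to 0.156), and Tpm2 without IS replicate 4, IS + pNaKtide replicate 3 or 4, oxLDL replicate 2 or 5, or oxLDL + pNaKtide replicate 4 (0.114 to 0.169). Single omissions also brought calls: Tpm2 in the first test without control replicate 1, oxLDL replicate 4, oxLDL + pNaKtide replicate 1 or pNaKtide replicate 1 (0.0570 to 0.0981), and in the second test Acta2 without IS replicate 1 or 2, IS + pNaKtide replicate 1 or 2, oxLDL replicate 1 or 3, or oxLDL + pNaKtide replicate 2 (0.0591 to 0.0975) and Actb without oxLDL + pNaKtide replicate 3 (0.0816).

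For the gene lists below, the balance of calls is to be read against all genes and against the scaling. Over all genes, 3637 were higher and 3622 lower with oxLDL (36.0% called), and 4458 were higher and 5264 lower with oxLDL + pNaKtide than with oxLDL (48.3%). With scaling by library size alone these became 4963 and 2276, and 2696 and 7680, with medians of 0.17 and -0.30. With offsets for GC content and length they became 1717 and 2282 (3999 genes, against 7259), and 3805 and 3623 (7428 genes, against 9722).

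Among the regulators of SRF, 11 cofactor genes were tested. Of these, 2 were higher and 4 lower with oxLDL than in control cells, and 3 were higher and 5 lower with oxLDL + pNaKtide than with oxLDL. The first split was 3 and 2 with library size alone and 1 and 1 with offsets for GC content and length, and the second was 0 and 6 and 0 and 3, so that no cofactor was called higher with both agents under these settings. Srf was at 33.9 ± 3.65 CPM in control cells, 27.1 ± 1.49 CPM with oxLDL and 32.9 ± 3.68 CPM with both agents. It fell by 0.32 on the log2 scale with oxLDL, with no overlap between the groups (25.4 to 29.3 against 30.2 to 39.1 CPM; BH-adjusted p-value 0.0103), and was higher by 0.28 with both agents (0.00865). The direction of the second change turned with offsets for GC content and length (-0.17, 0.0661), under which the first was -0.031. Mrtfa fell by 0.33 with oxLDL (0.0275) and was higher by 0.34 with both agents (0.0137), whereas its relative Mrtfb was at 0.17 with oxLDL (0.352) and lower, at -0.47, with both agents (0.00552).

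Other cofactors also passed. Scai, a repressor of the Mrtf coactivators, rose by 0.99 on the log2 scale with oxLDL (BH-adjusted p-value 0.0170), and Csrp1, a LIM protein of smooth muscle, fell by 0.41 (0.00956). Fhl2, a LIM protein that competes for SRF, was lower, at -0.85, with oxLDL + pNaKtide than with oxLDL (0.000220). The median log2 fold change of the list was 0.09 with oxLDL and -0.25 with both agents against oxLDL, beside 0.045 and -0.086 over all genes.

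Among 23 other actin, myosin and contractile genes, 3 were higher and 6 lower with oxLDL, and 12 were higher and 5 lower with both agents than with oxLDL. The list's median was -0.18 with oxLDL and 0.26 with both agents, beside 0.045 and -0.086 over all genes. Both balances turned with library size alone, to 5 higher and 3 lower and to 4 higher and 6 lower, with a median of 0.038 for the second, and with the GC content and length offsets they were 2 and 2, and 7 and 4. Des (desmin), an intermediate filament protein of muscle, was at 20.8 ± 4.69 CPM in control cells, 12.8 ± 1.80 CPM with oxLDL and 27.4 ± 6.35 CPM with both agents, with log2 changes of -0.70 (0.0126) and 1.09 (7.62e-05). Cald1 (caldesmon), an actin-binding regulator of contraction, went the opposite way, with 0.25 (0.0351) and -0.70 (6.70e-06), although the first value was -0.08 with offsets for GC content and length. Of the markers of mature muscle, 5 of 10 could be tested, and Des, Myh11 and Smtn were higher with both agents than with oxLDL, a count that was 1 with library size alone and with the offsets. Their summed level was 13.7 to 21.9 FPKM with both agents and 9.15 to 11.9 FPKM with oxLDL, without overlap, and moved with that of Tpm2. Its part in the result was not tested.

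Of 28 focal adhesion and actin crosslinking genes, 4 were higher and 14 lower with oxLDL, and 15 were higher and 8 lower with both agents than with oxLDL. The medians were -0.27 and 0.25, beside 0.045 and -0.086 over all genes. With library size alone the counts were 6 and 10, and 8 and 9 with a median of 0.025, and with the offsets they were 1 and 12, and 13 and 4. Lims2, a LIM adaptor of the integrin-linked kinase complex, fell by 0.60 with oxLDL (BH-adjusted p-value 0.00783) and was higher by 0.73 with both agents (0.000101). Pdlim5, a PDZ and LIM protein of actin structures, rose by 0.42 (0.0124) and was lower, at -0.70, (4.59e-05). Vcl, the member that belongs with these genes, passed in neither comparison.

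Of 19 genes of the YAP and TEAD pathway, to which Ccn2 belongs as a target, 5 were higher and 3 lower with oxLDL, and 1 was higher and 8 lower with both agents than with oxLDL. With library size alone these were 7 and 1, and 0 and 13, and with the offsets 1 and 1, and 1 and 6. Lats2, a kinase that inhibits YAP, rose by 0.35 with oxLDL (BH-adjusted p-value 0.0726), a call lost with at least 1 count over all libraries (0.106) and with the compared groups alone (0.109), and Axl, a receptor tyrosine kinase, fell by 0.36 (0.0238). Fstl1, a secreted glycoprotein, was lower, at -0.83, with both agents (9.15e-06), and Amotl2, which binds YAP, was higher by 0.23 (0.0248), a value of -0.0024 with scaling by library size alone. Of 12 immediate early targets of the ternary complex, 2 were higher and 2 lower with oxLDL, and 4 were lower and none higher with both agents, and with library size alone as with the offsets these became 2 and 0, and 0 and 6. Klf6 rose by 0.51 with oxLDL (0.0109) and was lower, at -0.74, with both agents (0.000115), and Egr1 fell by 0.29 with oxLDL (0.0127).

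Some adipocyte and fibroblast markers passed in the same comparisons as the tropomyosins. Of 12 adipocyte markers, 3 were lower and none higher with oxLDL, and 7 were higher and none lower with both agents than with oxLDL, beside the 36.0% and 48.3% of all genes. With library size alone these were 2 higher and 1 lower, and 4 higher and 1 lower, and with the offsets 0 and 1, and 6 and 0. Cfd (adipsin) fell by 0.53 with oxLDL (BH-adjusted p-value 0.0269), and Retn (resistin) was higher by 0.71 with both agents (0.000136). Their summed level was 4311 to 6156 FPKM with oxLDL and 5914 to 7587 FPKM with both agents. Of 12 fibroblast and preadipocyte markers, 1 was higher and 4 lower with oxLDL, and 3 were higher and 3 lower with both agents, with summed levels of 953 to 1069 and 937 to 1460 FPKM. Their counts were 2 and 1, and 3 and 5, with library size alone, and 0 and 1, and 3 and 3, with the offsets. Dlk1, which marks preadipocytes, fell by 0.69 (0.0369), and S100a4 was higher by 0.42 with both agents (0.00118). Postn (periostin) rose by 0.45 with oxLDL (0.00961) and was lower, at -0.83, with both agents (1.03e-05), and both directions turned with offsets for GC content and length (-0.33 and 0.22). Of 4 macrophage markers tested, Cd14 fell by 0.47 with oxLDL (0.0240), and of 2 endothelial markers tested none passed in either comparison by edgeR. With IS, where Tpm1 rose, 5 of 12 adipocyte markers were lower than in control cells and none higher (median -0.31), and 4 of 12 fibroblast and preadipocyte markers were lower and none higher (median -0.37), against 7.94% of all genes and a median of 0.025. Their summed levels were 4652 to 6642 FPKM in control cells and 3915 to 5491 FPKM with IS for the adipocyte markers, and 1127 to 1452 and 735 to 1198 FPKM for the fibroblast markers. The part of these markers in the changes of Tpm1 and Tpm2 was not tested.

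Many calls on these named genes with oxLDL depended on whether base composition and gene length were modelled. With offsets for GC content and length, 12 of the 16 calls for oxLDL against control were lost, beside the fall from 7259 to 3999 over all genes, those of Axl, Cald1, Cd14, Cfd, Dlk1, Egr1, Klf6, Mrtfa, Pdlim5, Postn, Scai and Srf. For oxLDL + pNaKtide against oxLDL, 5 of 14 were lost, those of Amotl2, Mrtfa, Postn and S100a4, and that of Srf, which passed in the opposite direction. Scai was then at 0.23 (BH-adjusted p-value 0.381) with oxLDL, while Lims2 was at -0.32 (0.0305) and Des at -0.46 (0.0525). With scaling by library size alone the calls of Egr1 and Mrtfa with oxLDL, and those of Amotl2, Mrtfa and Srf with both agents, were lost.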

How the data were processed

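Libraries of 3T3-L1 cells in 6 groups of 5 were analysed from the deposited tables. The raw count values were made by the authors from paired-end reads of stranded mRNA libraries, trimmed with Trimmomatic 0.38, aligned to GRCm38 with HISAT2 2.1.0 and counted per gene with GenomicAlignments for each replicate. The deposited FPKM values equal the counts times 1 factor per gene and 1 per library, and a table of counts divided by size factors was not used. Which annotation release and strand setting served the counting is not given in the sources used. The submitters' processing notes also name DESeq2 1.20.0.

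Genes with more than 14 counts summed over the 30 libraries were scaled by TMM and fitted with the robust quasi-likelihood model of edgeR 4.0.16 (R 4.3.3), with 6 groups and two-sided tests. The BH method was applied over the 20139 genes tested with a threshold of 0.1, and the script was tested on simulated data. Intervals are the estimate ± 1.96 SE. Other tools were limma 3.58.1, DESeq2 1.42.0, mgcv 1.9.3, Python 3.11.15, numpy 2.4.6 and scipy 1.17.1. Symbols were matched for 54079 of 54232 genes. Libraries of the same group were compared in 60 pairs and none was a duplicate (chi-square per degree of freedom at least 1.30). RefSeq windows of GRCm38.p6 were searched for CArG boxes.

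The members and gene lists were chosen with earlier results of these data known, and no list was tested as a set. The result of 1 list is not reported here. Of the lists, Srf, Mrtfa, Mrtfb and Myocd were named, with the gene of smallest adjusted p-value in each direction for oxLDL against control and for oxLDL + pNaKtide against oxLDL, and the defining markers of other cell types. The relatives of members, Actg1 among them, and the ratio of Tpm2 to Tpm1 were added after the values were seen, as were the other settings for the lists. Results were recomputed with DESeq2, with RLE size factors, with library size alone, for the 11567 genes over 14 counts in each library, for the 29409 genes with at least 1 count, at an adjusted p-value of 0.05, with a replicate block, with limma-trend on log2(FPKM + 1) above a mean FPKM of 0.5 (13639 genes), with the compared groups alone, with offsets for GC content and length (known for 99.84% of genes tested), and without single libraries or both control replicate 1 and IS replicate 4.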

Additional observations from a re-analysis of the deposited data

Results flagged for a closer look

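Dixon's test for a single far value was applied to 66 groups of 5 values, and 7 values stood far from the other 4 of their group, 3 of them from IS replicate 4. Chance marks about 1 in 20 such groups. IS replicate 4 was the highest of its group for Acta2 (10.4 CPM), for Tpm2 (31.5 CPM) and for the ratio of Tpm2 to Tpm1 (1.10), and this library also stood apart on the first principal component. Cnn2 was highest in replicate 4 of oxLDL + pNaKtide (48.0 CPM), which stood apart on that component too. Vcl was lowest in replicate 2 of IS + pNaKtide (125 CPM). Ccn2 was highest in control replicate 2 (0.553 CPM, 7 counts) and in oxLDL replicate 1 (0.565 CPM, 8 counts), with at most 2 counts in the other libraries of either group.

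In edgeR's 2 tests of a difference in the change with pNaKtide, 1 member passed in each, against 24.6% and 29.3% of all genes. For Tpm1 the change with oxLDL minus the change without was -0.28 on the log2 scale (BH-adjusted p-value 0.0718). For Tpm2 the change with oxLDL minus the change with IS was 0.60 (BH-adjusted p-value 0.0654). These comparisons share libraries with the comparisons of the groups themselves, and the BH-adjusted p-value of each passed 0.1 but not 0.05. Both calls were lost with offsets for GC content and length (0.297 for Tpm1 and 0.202 for Tpm2) and without some single libraries.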

How the results depend on the processing

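Counts of members called, and of listed genes called for oxLDL against control and for oxLDL + pNaKtide against oxLDL, moved by over 1.5 times as follows, and calls gained or lost within that margin stand beside each gene in the report. At an adjusted p-value of 0.05 the calls fell to 0 for oxLDL, for IS and for both differences of changes. With DESeq2, 1 member was called for IS + pNaKtide against control (main analysis 0) and 2 in each difference of changes (main analysis 1), adipocyte markers for oxLDL were 5 and muscle markers 2, and macrophage markers for oxLDL + pNaKtide were 1. Over all genes, DESeq2 called 1486 for IS + pNaKtide against control, where the main analysis called 72. Every other setting with 1 member called in that comparison raised the count over all genes too, to between 312 and 6517. With RLE size factors, 2 members were called in the difference against IS and 1 macrophage marker for oxLDL + pNaKtide. With library size alone, 1 member was called for oxLDL, 1 for oxLDL + pNaKtide against control and 2 in each difference, and the lists stood at 2 (ternary complex) and 3 (fibroblast) for oxLDL and at 10 (other contractile), 1 (macrophage) and 1 (muscle) for oxLDL + pNaKtide. With more than 14 counts in every library, 1 member was called for IS + pNaKtide against control, 2 in the difference against IS and 1 macrophage marker for oxLDL + pNaKtide. With at least 1 count, 1 member was called for oxLDL, 0 for IS and 0 in the difference against pNaKtide alone, with 1 YAP gene for oxLDL and 1 muscle marker for oxLDL + pNaKtide. With limma-trend, 2 members were called in the difference against IS, with 2 muscle markers for oxLDL and 1 macrophage marker for oxLDL + pNaKtide.

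With the compared groups alone, calls were 0 for IS, 1 for oxLDL + pNaKtide against oxLDL, 1 for IS + pNaKtide against control, and 0 and 2 in the differences, with 2 muscle markers for oxLDL and 2 ternary complex and 10 fibroblast genes for oxLDL + pNaKtide. With GC content and length offsets, calls were 0 for oxLDL, 0 for IS, 1 for IS + pNaKtide against control and 0 in the difference against pNaKtide alone. The lists for oxLDL were then at 2 (SRF cofactors), 4 (other contractile), 2 (YAP), 2 (ternary complex), 1 (adipocyte), 1 (fibroblast) and 0 (macrophage), and for oxLDL + pNaKtide at 3 (SRF cofactors), 11 (other contractile) and 1 (muscle). Without control replicate 1 and IS replicate 4, calls were 3 for IS, 1 for IS + pNaKtide against control, and 2 and 0 in the differences, with 8 adipocyte, 3 macrophage and 2 muscle genes for oxLDL and 1 macrophage marker for oxLDL + pNaKtide.

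Replicate numbers did not pair the libraries. Over 75 same-numbered pairs of different groups, correlations of deviations from group means ran from -0.764 to 0.856 (median 0.128, against -0.0628 for other pairs), 39 pairs were over 0.1, and 11 of 30 libraries correlated best with their own number. With a replicate block, 1 member was called for IS + pNaKtide against control (Acta2, -0.95, 0.0725), 2 in the difference against pNaKtide alone, and 2 muscle markers for oxLDL, and Cnn2 was called for oxLDL (-0.30, 0.0987). Over all genes the block raised the calls from 1599 to 3423 for IS and from 72 to 1338 for IS + pNaKtide against control.

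Leaving out single libraries gave 0 to 3 members for oxLDL, 0 to 3 for IS, 1 to 3 for oxLDL + pNaKtide against oxLDL, 0 to 1 for oxLDL + pNaKtide and for IS + pNaKtide against control, and 0 to 2 in each difference. Lists for oxLDL ranged over 5 to 13 (other contractile), 1 to 10 (YAP), 2 to 4 (ternary complex), 1 to 7 (adipocyte), 1 to 6 (fibroblast), 1 to 3 (macrophage) and 1 to 2 (muscle), and for oxLDL + pNaKtide over 10 to 16 (other contractile), 2 to 4 (ternary complex), 0 to 1 (macrophage) and 1 to 3 (muscle).

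Directions that turned on leaving out a library belonged to members that were not called. The log2 ranges were -0.028 to 0.30 (Acta2, pNaKtide), -0.10 to 0.25 (Acta2, oxLDL + pNaKtide against control), -0.32 to 0.036 (Acta2, IS against oxLDL), -0.34 to 0.0081 (Tagln, pNaKtide), -0.48 to 0.11 (Tagln, oxLDL + pNaKtide against oxLDL), -0.033 to 0.42 (Tagln, IS + pNaKtide against IS), -0.28 to 0.32 (Tagln, IS against oxLDL), -0.30 to 0.29 (Tagln, difference against pNaKtide alone), -0.078 to 0.15 (Cnn2, IS), -0.17 to 0.0071 (Cnn2, pNaKtide), -0.0005 to 0.15 (Cnn2, oxLDL + pNaKtide against oxLDL), -0.098 to 0.038 (Tpm1, oxLDL + pNaKtide against control) and -0.030 to 0.21 (Tpm2, IS against oxLDL). For Actb they were -0.026 to 0.061 (pNaKtide), -0.030 to 0.040 (IS + pNaKtide against control) and -0.044 to 0.028 (IS against oxLDL), and for Vcl -0.26 to 0.11 (oxLDL + pNaKtide against oxLDL), -0.058 to 0.064 (IS + pNaKtide against IS), and -0.14 to 0.23 and -0.23 to 0.14 (differences against pNaKtide alone and against IS).

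With the GC content and length offsets, directions turned for Actb with oxLDL (0.025), Cnn2 with oxLDL + pNaKtide against oxLDL (-0.14) and in the difference against pNaKtide alone (-0.068), Tagln between IS and oxLDL (-0.057), Tpm1 for oxLDL + pNaKtide against control (0.068) and in the difference against IS (0.038), Vcl for oxLDL + pNaKtide against oxLDL (0.13) and in the difference against IS (0.16), Cald1 (-0.080) and Postn (-0.33) for oxLDL, and Srf (-0.17), Egr1 (-0.12), Axl (-0.011) and Postn (0.22) for oxLDL + pNaKtide against oxLDL. Without control replicate 1 and IS replicate 4 they turned for Acta2 (-0.030 with pNaKtide, -0.090 with oxLDL + pNaKtide against control), Actb (-0.026 with pNaKtide and -0.030 with IS + pNaKtide against control), Cnn2 with IS (-0.17), Tagln (-0.036 between IS and oxLDL, 0.13 in the difference against pNaKtide alone) and Tpm2 between IS and oxLDL (-0.030). With library size alone they turned for Acta2 (-0.020, oxLDL + pNaKtide against control), Actb (0.024 with IS, 0.048 with oxLDL, -0.017 with pNaKtide), Cnn2 (-0.13 for oxLDL + pNaKtide against oxLDL, -0.031 in the difference against pNaKtide alone), Tagln (-0.0042, IS against oxLDL), Vcl (-0.15, difference against pNaKtide alone), and Amotl2 (-0.0024), Axl (-0.11) and Egr1 (-0.11) for oxLDL + pNaKtide against oxLDL. With limma-trend Vcl turned in the difference against pNaKtide alone (-0.027). The cause was not tested, except that library size alone shifted the median of all genes from 0.045 to 0.17 for oxLDL and from -0.086 to -0.30 for oxLDL + pNaKtide against oxLDL, with 4963 higher and 2276 lower calls (main analysis 3637 and 3622) and 2696 higher and 7680 lower (4458 and 5264).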
